A study of Mus musculus with 15 samples.

Results

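The genes described here are 7 genes known to respond to transforming growth factor beta (TGF-β): *Ccn2*, *Skil*, *Ski*, *Pmepa1*, *Tgfbi*, *Ltbp2* and *Bhlhe40*. They were taken by name from a list drawn up with earlier results of these data known, and all 7 were found among the 35675 genes into which the deposited transcripts were summed. RNA-seq was performed on primary mouse embryonic fibroblasts (MEFs) of the genotype Tg:Pax7-nGFP/C57BL6;DBA2, which carry a nuclear GFP reporter of *Pax7*, during their conversion into induced myogenic progenitor cells (iMPCs). There were 3 MEF lines, each grown from the torso of a single embryo, and each line gave 1 library in each of 5 conditions, so that every group has n = 3. All cells were kept in iMPC medium. The group MEFs received no further treatment. The group +MyoD was transfected 4 times with synthetic mRNA coding for MyoD, the muscle master transcription factor, in the presence of B18R, a decoy receptor for type I interferon. The group +MyoD+F/R/C was transfected in the same way and also given forskolin, which activates adenylyl cyclase, RepSox, which inhibits the TGF-β type I receptor kinase, and the GSK3 inhibitor CHIR99210. In +MyoD+F/R/C+SP this was joined by SP600125, an inhibitor of JNK, while +MyoD+F/R/C+CP had CP690550, an inhibitor of JAK kinases, in its place. All 5 groups are labelled day 10, although the names of the deposited files of untreated MEFs carry d0, so the age of those cultures is not settled by the sources used here. Forskolin, RepSox and CHIR99210 were always given together, so the share of each in a difference cannot be told apart.

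TGF-β is secreted in a latent form that is tethered to the extracellular matrix by latent TGF-β binding proteins. Once freed, it joins its type II and type I receptors, and the type I receptor phosphorylates SMAD2 and SMAD3, which enter the nucleus with SMAD4 and switch on matrix genes, cytoskeletal genes and the pathway's own inhibitors. In fibroblasts this programme is best known for matrix deposition and for the myofibroblast state, and in the muscle lineage TGF-β is known as a brake on differentiation.

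Sequencing depth was 29393872 to 41885769 estimated counts per library (median 38458894), and all 7 genes passed the filter on low counts that left 19331 genes for testing. Levels are given as CPM, the counts scaled to library size after TMM normalization, in the order of MEF lines 1, 2 and 3. A gene was called higher or lower where the adjusted p of edgeR's quasi-likelihood test (Benjamini-Hochberg over all 19331 genes) was at most 0.05 and the log2 fold change was over 0.5 in size. The fibroblast markers fixed for this check were present in all 5 groups, and the summed level of 9 skeletal muscle markers was 67.5 to 91.7 CPM in MEFs, 3488 to 5391 CPM in +MyoD and 8261 to 10430 CPM in +MyoD+F/R/C, with *Myod1*, *Myog*, *Myh8*, *Ttn*, *Ckm* and *Tnnt3* under 1 CPM in all MEF libraries. The 4 macrophage markers together stayed at or below 15.8 CPM and the 4 endothelial markers at or below 11.7 CPM in every library. The 4 epithelial markers summed to 80.7 to 94.1 CPM in MEFs, 18.5 to 35.7 CPM in +MyoD and 15.1 to 27.8 CPM in +MyoD+F/R/C, and *Krt8* and *Krt18*, both keratins, were called lower in +MyoD than in MEFs, with *Epcam* and *Cdh1* under 1 CPM in all libraries of both groups. In bulk RNA, fewer cells of a type and less RNA per cell cannot be told apart.

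With F/R/C most of these genes were lower. Set against +MyoD, the +MyoD+F/R/C cells had 6 of the 7 genes called lower and 0 called higher, where 8.39% of all tested genes were called lower and 10.9% higher. *Ccn2* had the largest log2 fold change, -4.37, and *Pmepa1*, *Skil*, *Ltbp2*, *Bhlhe40* and *Ski* lay between -1.72 and -1.07. *Tgfbi* was the gene not called. The median log2 fold change was -1.51 over the 7 genes and 0.03 over all genes tested. In +MyoD against MEFs, 3 of the 7 were called higher (*Tgfbi*, *Ltbp2* and *Bhlhe40*), where 22.8% of all tested genes were. Only *Skil* was called lower, where 18% of all tested genes were. The share called lower was thus near that of all genes. The plot of levels by condition shows these courses line by line.

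**Figure D1:**
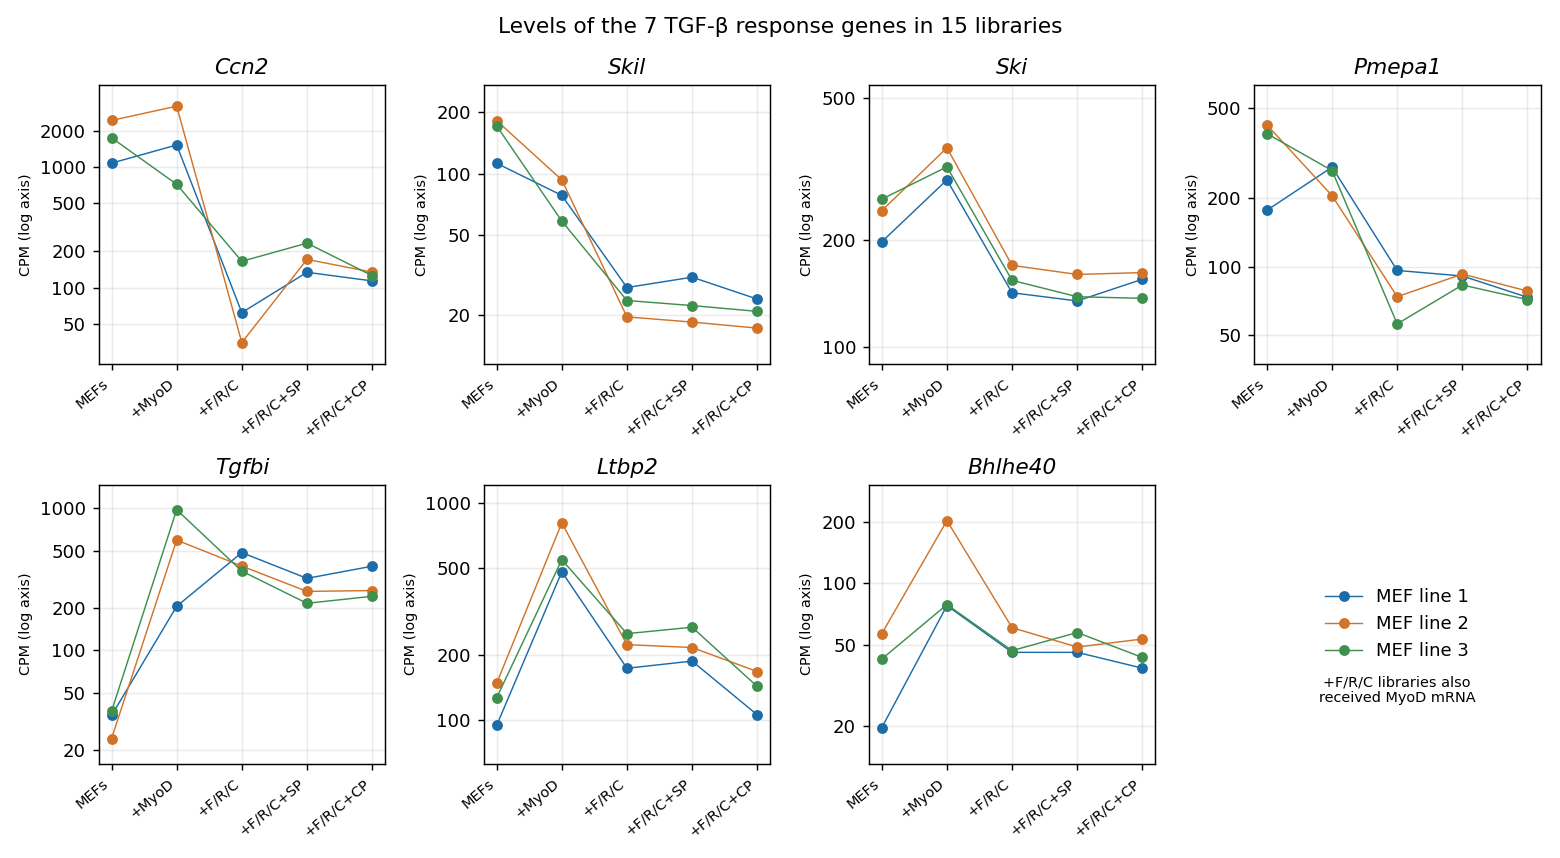
CPM (log axis) of each of the 7 genes in the 15 libraries, with 1 panel per gene, conditions along the horizontal axis, and 1 coloured line joining the libraries of each MEF line. *Ccn2*, *Skil*, *Ski* and *Pmepa1* are lower in all 9 F/R/C-treated libraries than in any MEF or +MyoD library, while *Tgfbi*, near 24.0 to 37.3 CPM in MEFs, stays at 204 CPM or more in the other conditions. The share of all tested genes that separate in this way was not computed, so the separation does not set these genes apart.

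*Ccn2* codes for the secreted matricellular protein CCN2, formerly called connective tissue growth factor, and is a much used readout of TGF-β in fibroblasts. It lies on the plus strand of chromosome 10 (chr10:24595442-24598683, GRCm38). Its level was 1077, 2434 and 1747 CPM in MEFs and 1523, 3195 and 719 CPM in +MyoD. These groups overlapped, and line 3 went the other way from lines 1 and 2. With F/R/C it was 62.1, 35.0 and 165 CPM, which left 4.08%, 1.10% and 23.0% of the +MyoD level of the same line. All 3 F/R/C libraries thus lay far below all 6 libraries without it. The log2 fold change against +MyoD was -4.37 (SE 0.59, edgeR adjusted p = 1.0e-04), a 20.7-fold drop, and against MEFs it was -4.33 (SE 0.59, edgeR adjusted p = 1.9e-05). Of the 7 genes *Ccn2* had the widest spread of this ratio between lines: without line 2 of +MyoD the log2 fold change was -3.68, and without line 3 of +MyoD+F/R/C it was -5.20 (against MEFs -5.21), all still called. Per length it was the most abundant of the 7 in MEFs and in +MyoD, with means of 1143 and 1280 TPM (the scale that also corrects for transcript length), but not with F/R/C, where its mean was 67.3 TPM.

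*Skil* and *Ski* code for SnoN and SKI, related nuclear proteins that bind SMADs and recruit corepressors, so that they dampen the response, and *Skil* is itself a rapid TGF-β target. *Skil* lies on the plus strand of chromosome 3 (chr3:31095058-31122577) and *Ski* on the minus strand of chromosome 4 (chr4:155154075-155222592). *Skil* stood at 112, 182 and 172 CPM in MEFs, at 78.0, 93.0 and 58.3 CPM in +MyoD, and at 27.4, 19.6 and 23.6 CPM in +MyoD+F/R/C. The groups formed 3 separate steps with no overlap, falling in every line. The first step was a log2 fold change of -1.02 (SE 0.23, edgeR adjusted p = 0.0018) and the second -1.70 (SE 0.23, edgeR adjusted p = 1.2e-04), which together put +MyoD+F/R/C 6.59-fold below MEFs. *Ski* was measured at 197, 241 and 260 CPM in MEFs and at 294, 362 and 320 CPM in +MyoD, and it was higher with MyoD mRNA in all 3 lines. That difference, 0.48 on the log2 scale (SE 0.13, edgeR adjusted p = 0.0068), passed the p threshold but not the fold limit of 0.5, which it passed without line 1 of +MyoD (0.55), without line 2 of MEFs (0.50) and without line 3 of MEFs (0.57). With F/R/C *Ski* read 142, 169 and 154 CPM, below every library of MEFs and +MyoD. It kept 46.8% to 48.3% of the +MyoD level in each line, the most uniform drop of the 7 (log2 fold change -1.07, SE 0.13, edgeR adjusted p = 4.8e-05).

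*Pmepa1* codes for a membrane protein that captures SMAD2 and SMAD3 and acts, like SKI and SnoN, as negative feedback. It lies on the minus strand of chromosome 2 (chr2:173224458-173276533). Its level was 177, 422 and 386 CPM in MEFs, 275, 206 and 265 CPM in +MyoD, and 96.2, 73.7 and 55.9 CPM in +MyoD+F/R/C. MEFs and +MyoD overlapped, because line 1 of MEFs was the lowest of these 6 libraries, and every F/R/C library was below both. The difference between +MyoD and MEFs was -0.40 on the log2 scale (SE 0.25, edgeR adjusted p = 0.22) and was not called, but without line 1 of MEFs it became -0.71 (edgeR adjusted p = 0.0073) and was. The log2 fold change with F/R/C was -1.72 against +MyoD (SE 0.26, edgeR adjusted p = 2.4e-04) and -2.13 against MEFs (SE 0.26, edgeR adjusted p = 7.0e-06).

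Of the matrix genes, *Tgfbi* codes for a secreted adhesion protein that binds collagen and integrins and was named for its induction by TGF-β, and it lies on the plus strand of chromosome 13 (chr13:56609523-56639562). It read 34.8, 24.0 and 37.3 CPM in MEFs and 204, 598 and 978 CPM in +MyoD, so every +MyoD library was above every MEF library. This rise, 4.21 on the log2 scale or 18.5-fold (SE 0.44, edgeR adjusted p = 1.7e-06), was the largest among the 7 genes. In +MyoD+F/R/C it read 488, 392 and 361 CPM. The lines disagreed in direction here, since line 1 stood at 239% of its +MyoD level and line 2 at 65.6%, and line 3 was lower still. The difference between these groups was -0.52 (SE 0.38, edgeR adjusted p = 0.39) and not called. Its size rested on single +MyoD libraries, as it was 0.045 without line 3 of +MyoD and -0.93 (edgeR adjusted p = 0.019) without line 1. Against MEFs, *Tgfbi* was 12.9-fold higher with F/R/C (log2 fold change 3.69, SE 0.43, edgeR adjusted p = 3.5e-06).

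*Ltbp2* codes for a matrix protein of the latent TGF-β binding protein family, which differs from its relatives in that it is not known to bind latent TGF-β itself but sits on fibrillin microfibrils. It lies on the minus strand of chromosome 12 (chr12:84783212-84876532). Its level was 94.2, 147 and 126 CPM in MEFs, 482, 810 and 547 CPM in +MyoD and 173, 222 and 250 CPM in +MyoD+F/R/C. The 3 groups did not overlap, with +MyoD highest and F/R/C between it and MEFs in every line. *Ltbp2* rose with MyoD mRNA (log2 fold change 2.32, SE 0.24, edgeR adjusted p = 1.7e-06) and fell by 1.51 when F/R/C was added (SE 0.23, edgeR adjusted p = 3.1e-04). It was still higher than in MEFs by 0.81 (SE 0.23, edgeR adjusted p = 0.0080).

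*Bhlhe40* codes for a basic helix-loop-helix repressor that is induced by TGF-β, hypoxia and the circadian clock, and it lies on the plus strand of chromosome 6 (chr6:108660629-108666925). It read 19.7, 56.8 and 42.6 CPM in MEFs, 77.8, 203 and 78.8 CPM in +MyoD, and 45.9, 60.7 and 46.9 CPM in +MyoD+F/R/C. Line 2 of +MyoD stood far above its neighbours, and the F/R/C libraries overlapped those of MEFs. The rise with MyoD mRNA was 1.60 (SE 0.37, edgeR adjusted p = 0.0023), and 0.98 without line 2 of +MyoD, still called. The log2 fold change with F/R/C, -1.23 (SE 0.36, edgeR adjusted p = 0.024), was the least firm of the 6. It lost its call without line 2 of +MyoD (-0.62, edgeR adjusted p = 0.177), without line 1 of +MyoD+F/R/C (edgeR adjusted p = 0.0897), without line 3 of +MyoD+F/R/C (edgeR adjusted p = 0.0808), and in a fit of only the 6 libraries compared (edgeR adjusted p = 0.0737). *Bhlhe40* did not differ by call between +MyoD+F/R/C and MEFs (0.37, SE 0.36, edgeR adjusted p = 0.42).

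Set against MEFs, +MyoD+F/R/C had 4 of the 7 genes called lower (*Ccn2*, *Skil*, *Ski* and *Pmepa1*), beside 21.6% of all tested genes, and 2 called higher (*Tgfbi* and *Ltbp2*), beside 26.6%. The share called higher was thus near that of all genes. Other matrix genes of the TGF-β programme went both ways against MEFs: *Fn1* (-0.69), *Lox* (-1.54) and *Thbs1* (-1.99) were called lower, and the collagen genes *Col1a1* (1.92) and *Col1a2* (1.198) higher. The median of the 7 was -0.59 and that of all genes 0.19. For *Ski* the log2 fold change against MEFs was -0.59 (SE 0.13, edgeR adjusted p = 0.0015), the smallest of these 4. These 3 comparisons share the +MyoD, MEF or F/R/C libraries among them and are not independent of each other. The untreated MEFs also lacked transfection and B18R, and the age of their cultures is not settled. The share of each of these in a difference from MEFs cannot be told apart from that of MyoD.

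**Figure D2:**
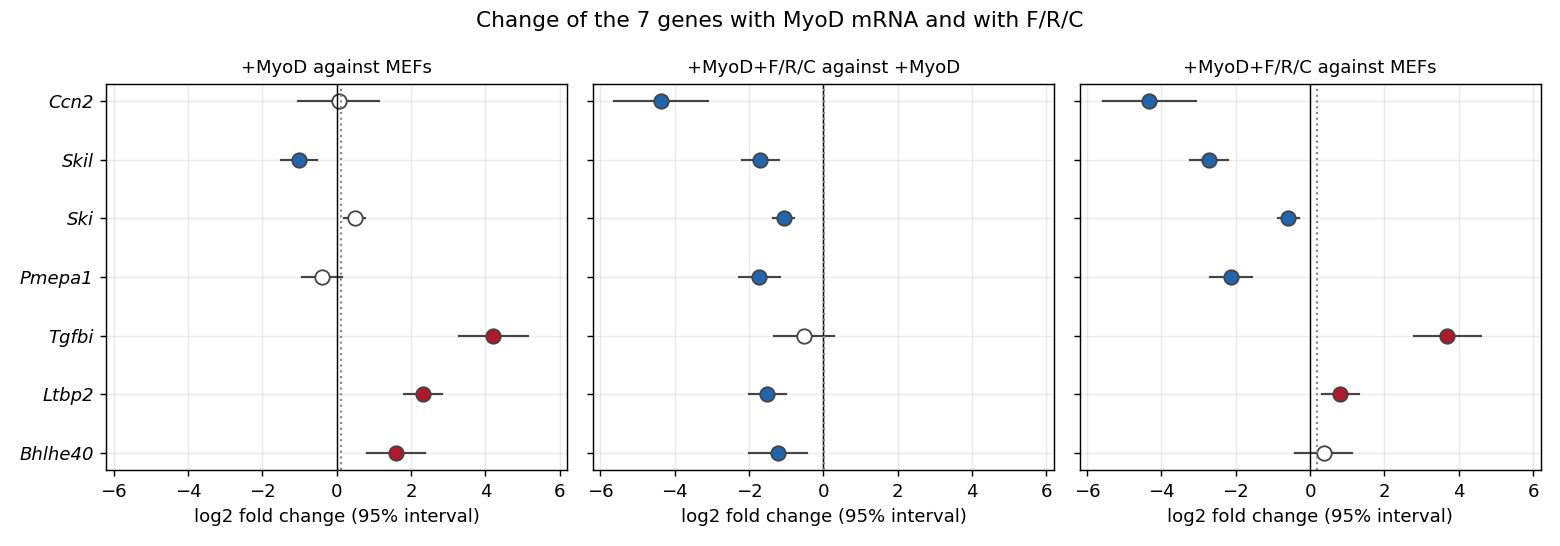
Log2 fold change (horizontal axis) of the 7 genes in 3 comparisons, with bars for the 95% interval. Filled red points were called higher, filled blue points were called lower and open points were not called, and the dotted line marks the median of all tested genes; in the middle panel 6 points are blue and *Tgfbi*, at -0.52, is open.

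Other markers moved in the same comparison. From +MyoD to +MyoD+F/R/C, 8 of 9 skeletal muscle markers were called higher, where 10.9% of all tested genes were called higher and 8.39% lower. Of the 9 fibroblast markers 4 were called higher, namely *Dcn* (3.72), *Lum* (3.34), *Pdgfra* (1.78) and *Pdgfrb* (0.78), and 2 lower, *Vim* (-1.05) and *Col1a2* (-1.13). Their summed level was 8881 to 10370 CPM in MEFs, 17930 to 47760 CPM in +MyoD and 16170 to 25550 CPM in +MyoD+F/R/C. Of the 4 epithelial markers *Cdh1* was called higher (2.57), from a mean of only 0.17 to 1.03 CPM, and 3 were not called. Of the endothelial markers *Pecam1* was called higher (3.77, from 0.07 to 1.005 CPM). Of the macrophage markers *Csf1r* was called lower (-2.42, from 3.64 to 0.68 CPM). The 4 smooth muscle and myofibroblast markers, 3 of which were called lower, summed to 3050 to 7288 CPM in +MyoD and to 990 to 2478 CPM in +MyoD+F/R/C, against 4766 to 6127 CPM in MEFs. All 5 proliferation markers were called higher with F/R/C, from a summed 90.3 to 115 CPM in +MyoD to 159 to 300 CPM, and both ranges lay below the 1073 to 1207 CPM of MEFs. The part of these shifts in the change of the 7 genes was not tested.

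Promoter sequences, from 250 bases before to 50 after the start of transcription, were found in the RefSeq table (GRCm38.p6) for 3 of the 7 genes. All that were found are shown. Of these genes *Ski* and *Ltbp2* were called lower with F/R/C against +MyoD and *Tgfbi* was not called, and a link to the sequences was not tested. Capitals mark CAGAC, the short motif bound by SMAD3 and SMAD4, read on both strands (GTCTG on the other), and each window is written in the direction of transcription.
Ski, chr4:155222486-155222785, minus strand: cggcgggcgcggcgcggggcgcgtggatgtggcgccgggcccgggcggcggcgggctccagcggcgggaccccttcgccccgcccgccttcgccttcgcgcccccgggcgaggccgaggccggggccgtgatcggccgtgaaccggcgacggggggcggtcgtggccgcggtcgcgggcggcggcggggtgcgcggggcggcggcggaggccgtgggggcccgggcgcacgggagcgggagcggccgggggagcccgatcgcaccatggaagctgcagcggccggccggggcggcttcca
Tgfbi, chr13:56609336-56609635, plus strand: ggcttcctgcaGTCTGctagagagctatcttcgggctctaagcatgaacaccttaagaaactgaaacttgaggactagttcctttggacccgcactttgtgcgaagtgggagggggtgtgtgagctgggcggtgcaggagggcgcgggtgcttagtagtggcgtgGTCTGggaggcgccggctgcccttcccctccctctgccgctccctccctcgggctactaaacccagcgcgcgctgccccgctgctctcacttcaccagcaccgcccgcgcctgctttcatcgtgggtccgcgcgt
Ltbp2, chr12:84876442-84876741, minus strand: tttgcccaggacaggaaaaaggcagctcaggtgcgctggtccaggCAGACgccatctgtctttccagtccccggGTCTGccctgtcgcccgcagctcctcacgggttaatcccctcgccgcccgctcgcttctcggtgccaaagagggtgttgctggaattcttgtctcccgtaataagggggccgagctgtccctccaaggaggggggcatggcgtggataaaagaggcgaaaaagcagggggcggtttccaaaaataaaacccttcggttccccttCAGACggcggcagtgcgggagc
The *Ltbp2* window held 3 matches to CAGAC, the *Tgfbi* window 2 and the *Ski* window 0, and 49.6% of 32851 promoter windows of this length hold at least 1. The GC-rich SMAD motif GGCGC, also read on both strands and with overlapping matches counted, occurred 7 times for *Ski*, 4 times for *Tgfbi* and 0 times for *Ltbp2* (36.9% of all windows). The palindromic SMAD motif GTCTAGAC (0.213% of windows), the TEAD motif GGAATG (14.7%), the E-box CAGCTG (16.3%), the AP-1 motif TGACTCA (5.20%) and the cAMP response element TGACGTCA (1.79%) were not found in these 3 windows. A match is a run of letters and was not tested as a binding site, so these counts are only a description.

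Other genes of the TGF-β programme were measured over lists that overlap in part. These lists, like those of the neighbouring pathways below, were drawn up with earlier results of these data known. Their counts are therefore a description and not an independent check. Of 26 other TGF-β response genes, 19 were called lower and 0 higher with F/R/C against +MyoD (median -1.34). Of all tested genes 8.39% were called lower and 10.9% higher. Among the 4 with the smallest p were *Itgb5*, an integrin subunit, which went from 588 ± 112 to 204 ± 25.4 CPM (SD, n = 3), *Thbs1*, a matricellular activator of latent TGF-β, from 16400 ± 7043 to 2403 ± 789 CPM, and *Fn1*, fibronectin, from 14480 ± 6760 to 2875 ± 240 CPM. The 7 genes not called in this list were *Edn1*, *Il11*, *Col1a1*, *Snai2*, *Postn*, *Sphk1* and *Snai1*. With MyoD mRNA alone, 13 of the 26 were called higher and 4 lower, where 22.8% and 18% of all tested genes were. The share called lower was thus near that of all genes. The lower ones included *Tgif1* and *Smad7*, both negative regulators of the pathway, and *Edn1*, and the higher ones included *Itgb5*, *Cdkn2b*, *Timp3* and *Col1a2*. Between +MyoD+F/R/C and MEFs, 15 were called lower, beside 21.6% of all tested genes, and 8 higher, beside 26.6%. The share called higher was again near that of all genes. Among the 4 with the smallest p were *Tgif1* (-2.57), *Smad7* (-2.14) and *Tagln* (-2.86), all lower.

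Upstream of these genes the picture was mixed. Among 11 ligands, carriers and receptors, F/R/C came with 6 called lower and 3 called higher against +MyoD. Over all tested genes the shares were 8.39% and 10.9%. *Tgfbr1*, the type I receptor that RepSox inhibits, was higher (log2 fold change 1.43, SE 0.19, edgeR adjusted p = 9.9e-05), and *Tgfb2*, a ligand (0.96), and *Tgfbr3*, the co-receptor betaglycan (1.78), were also higher. *Ltbp4* (-1.92), *Ltbp1* (-0.81), *Ltbp3* (-1.10), *Tgfb3* (-1.48), *Tgfb1* (-1.07) and *Eng* (-0.65) were lower. With MyoD mRNA alone 7 of these 11 had been called higher and 1, *Tgfbr1*, lower, beside 22.8% and 18% of all tested genes. None of *Smad2*, *Smad3* and *Smad4* was called in these comparisons, and with F/R/C their log2 fold changes were -0.22, 0.19 and -0.44 against +MyoD. Of these, *Smad4* passed the p threshold (edgeR adjusted p = 0.018) and not the fold limit. Between +MyoD+F/R/C and MEFs, however, *Smad4* was called lower (-0.89, edgeR adjusted p = 2.3e-05) and *Smad3* higher (0.64, edgeR adjusted p = 4.6e-04), and *Smad2* (-0.35) was not called.

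Neighbouring pathways also act on some of these genes. Their lists are given for +MyoD+F/R/C against +MyoD, where 10.9% of all tested genes were called higher and 8.39% lower. BMP is the sister branch that signals through different SMADs. Of its 10 response genes 5 were called higher with F/R/C (*Id4*, *Id2*, *Atoh8*, *Nog* and *Id1*) and 1 lower (*Grem1*), with a median of 1.01. YAP and TAZ, transcriptional coactivators that also drive *Ccn2*, had 8 of 12 response genes called lower and 1 higher (*Tgfb2*), with a median of -1.08, the same direction as that of the TGF-β lists. The 4 of smallest p there were *Axl* (-1.63), *Ptpn14* (-1.27), *Crim1* (-1.49) and *Lats2* (-0.97), and *Ankrd1*, another much used YAP target, read -0.09 (edgeR adjusted p = 0.87). Of 12 hypoxia and clock genes, the setting in which *Bhlhe40* is also known, 2 were called lower (*Slc2a1* and *Nr1d1*) and 0 higher, and *Bhlhe41*, its closest relative, read 0.30 (edgeR adjusted p = 0.51). Of 12 cAMP response genes 6 were called higher (*Gem*, *Pde3b*, *Dio2*, *Sik1*, *Pde4d* and *Ppargc1a*) and 1 lower (*Nr4a2*). The lists share *Ccn1*, *Tgfb2* and *Per1*, and *Acta2*, *Tagln*, *Cnn1*, *Col1a1* and *Col1a2* also serve as cell type markers.

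**Figure D3:**
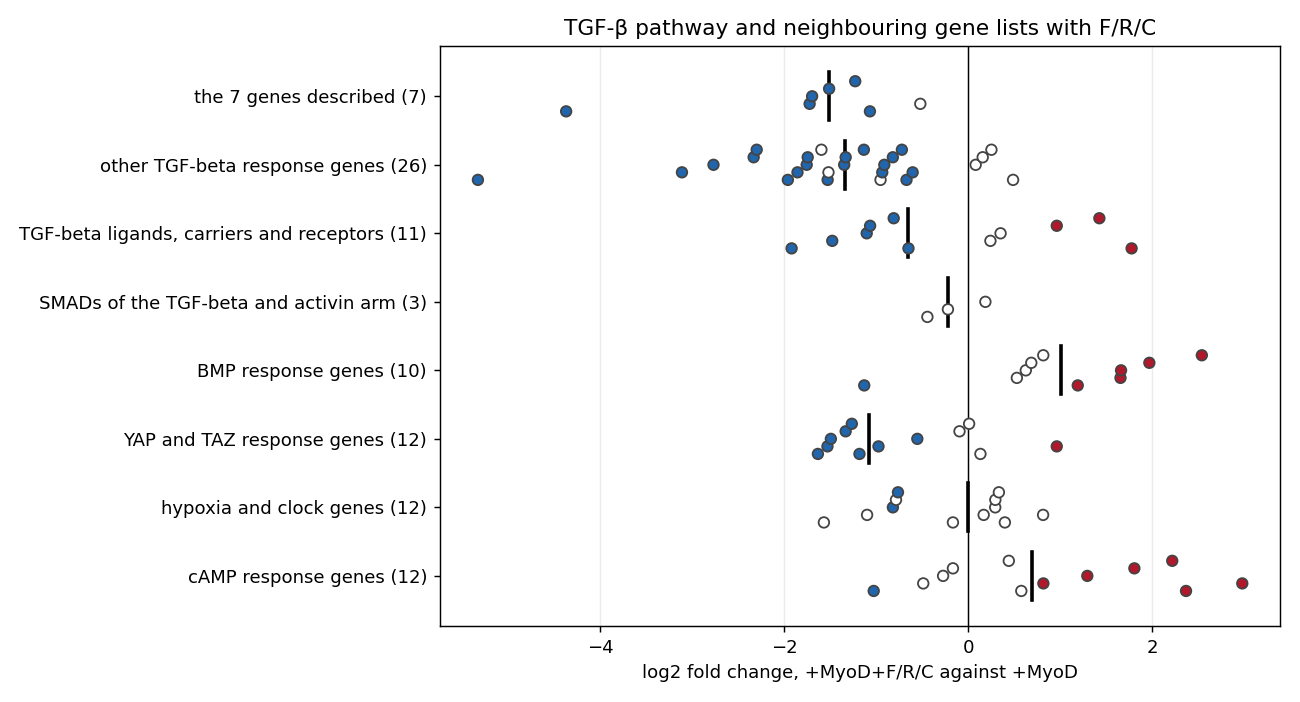
Log2 fold change of +MyoD+F/R/C against +MyoD (horizontal axis) for each gene of 8 lists, with the number of genes in brackets. Blue points were called lower, red points were called higher, open points were not called, and the vertical bar is the list's median, at -1.51 for the 7 genes described and -1.34 for the 26 other TGF-β response genes.

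When SP or CP was given together with F/R/C, most of the 7 genes were again lower than in +MyoD. With SP all 7 genes were called lower and 0 higher than in +MyoD, where 8.93% of tested genes were called lower and 12% higher. With CP 6 of 7 were called lower and 0 higher, where the shares were 9.98% and 12.6%. These comparisons share the +MyoD libraries with the one above. The log2 fold change of *Ccn2* was -3.33 with SP (SE 0.56) and -3.86 with CP (SE 0.58), and without line 2 of +MyoD it was -2.64 and -3.17. *Tgfbi* was at 321, 260 and 215 CPM with SP and at 391, 264 and 240 CPM with CP. In line 1 both were above the 204 CPM of +MyoD and in lines 2 and 3 below. Its call with SP was fragile: the log2 fold change was -1.16 (SE 0.39, edgeR adjusted p = 0.040), but the adjusted p was 0.0547 with the MEF line as a block, 0.147 in a fit of the 6 libraries alone, and 0.0603 to 0.257 when any of 5 single libraries was left out (line 2 or 3 of +MyoD, or line 1, 2 or 3 with SP). With CP it was -0.99 (SE 0.38, edgeR adjusted p = 0.073), and it was called without line 1 of +MyoD (-1.40), with DESeq2 (adjusted p = 0.0269) and with no filter on low counts (edgeR adjusted p = 0.0418). The call of *Bhlhe40* with SP (-1.24, edgeR adjusted p = 0.022) was lost without line 2 of +MyoD (-0.63), without line 1 or 2 with SP (edgeR adjusted p = 0.0784 and 0.0687) and in the 6 libraries alone (edgeR adjusted p = 0.055), and its call with CP (-1.41, edgeR adjusted p = 0.010) was lost without line 2 of +MyoD (-0.80, edgeR adjusted p = 0.072).

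Neither inhibitor moved any of the 7 genes past the threshold on the F/R/C background. For +MyoD+F/R/C+SP against +MyoD+F/R/C, 0% of all tested genes were called in either direction, and for CP 0.0362% were called lower and 0% higher. Between CP and SP, 0.197% of genes were called lower with CP and 0% higher. None of the 7 was among them in edgeR. At an unadjusted edgeR p under 0.05 the numbers of the 7 genes were 0 for SP, 1 for CP and 1 between CP and SP. The gene was *Ltbp2* both times. Of all 19331 tested genes, 1280, 1529 and 775 had such a p, so 1 of 7 does not set these genes apart. DESeq2 called none of the 7 either, although over all tested genes it called more than edgeR: 42 higher and 13 lower for SP, 71 and 120 for CP, and 5 and 87 between CP and SP. An edgeR fit of the 9 libraries with F/R/C alone also called none of the 7, with 18 genes higher and 9 lower overall for SP, 41 and 111 for CP, and 6 and 65 between CP and SP. *Ltbp2* read 187, 215 and 267 CPM with SP and 105, 167 and 142 CPM with CP, beside 173, 222 and 250 CPM with F/R/C alone. Every CP library was below every SP and every F/R/C library. The log2 fold change was -0.64 for CP against F/R/C (95% interval -1.13 to -0.14, edgeR adjusted p = 0.45) and -0.69 for CP against SP (-1.18 to -0.20, edgeR adjusted p = 0.85).

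*Ccn2* was 134, 171 and 234 CPM with SP and 114, 134 and 126 CPM with CP, beside 62.1, 35.0 and 165 CPM with F/R/C alone. It was thus higher with SP in all 3 lines and with CP in lines 1 and 2. The log2 fold changes were 1.04 (95% interval -0.07 to 2.15, edgeR adjusted p = 0.75) and 0.51 (-0.59 to 1.62), neither called, and without line 3 of +MyoD+F/R/C they were 1.89 and 1.36. *Tgfbi* was lower with SP than with F/R/C in every line and the groups did not overlap, at -0.64 (-1.46 to 0.17, edgeR adjusted p = 0.77). The narrowest intervals were those of *Ski*, at -0.10 (-0.38 to 0.17) for SP and -0.04 (-0.32 to 0.24) for CP, whose libraries read 135, 160 and 138 CPM and 155, 162 and 137 CPM. *Skil* read 30.8, 18.5 and 22.3 CPM with SP and 24.0, 17.3 and 20.9 CPM with CP, and its log2 fold changes against F/R/C were 0.02 (-0.47 to 0.51) and -0.18 (-0.67 to 0.31). *Pmepa1* read 91.0, 92.8 and 83.0 CPM with SP and 73.3, 78.1 and 71.5 CPM with CP, with every CP library below every SP library. Its difference between CP and SP was -0.26 (-0.80 to 0.28). *Bhlhe40* read 45.9, 48.8 and 57.5 CPM with SP and 38.5, 53.4 and 43.4 CPM with CP, with log2 fold changes of -0.01 (-0.78 to 0.76) and -0.18 (-0.95 to 0.59). These intervals leave room for changes of up to the stated bounds in either direction, so a missing call does not show equal levels. Likewise 0 of the 26 other TGF-β response genes was called in any of these 3 comparisons.

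**Figure D4:**
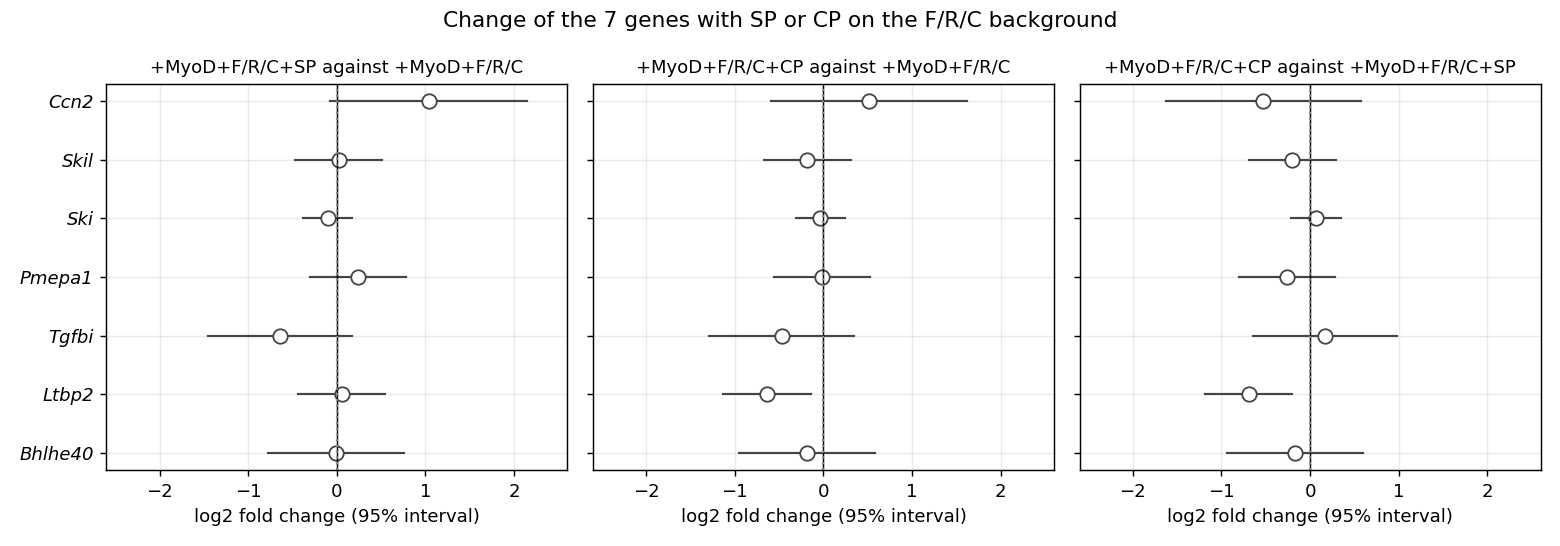
Log2 fold change (horizontal axis, bars for the 95% interval) of the 7 genes for SP and CP on the F/R/C background and for CP against SP. All points are open because none was called, and the intervals of *Ltbp2* in the middle and right panels are the ones that lie wholly below 0.

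Ranked by mean CPM, the 5 conditions therefore fell into different orders for different genes. *Skil* and *Pmepa1* were highest in MEFs, and *Ski*, *Tgfbi*, *Ltbp2* and *Bhlhe40* in +MyoD, as was *Ccn2*. The leading group overlapped the next for *Ccn2*, *Pmepa1* and *Tgfbi* and was clear of it for the other genes. At the other end, *Ccn2* was lowest with F/R/C alone, *Skil* and *Pmepa1* with CP and *Ski* with SP, in each case overlapping the next group up, and *Tgfbi*, *Ltbp2* and *Bhlhe40* were lowest in MEFs. Of these lowest groups *Tgfbi* in MEFs alone was clear of its neighbour. On a per length scale, the mean TPM in +MyoD+F/R/C ran from 268 for *Tgfbi* through 74.3 for *Ltbp2*, 67.3 for *Ccn2*, 50.8 for *Ski*, 48.0 for *Pmepa1* and 35.8 for *Bhlhe40* to 8.39 for *Skil*.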

How the data were processed

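Poly-A RNA of 15 libraries was sequenced as stranded single-end reads. Per the labels and the study's methods, the authors demultiplexed with bcl2fastq 2.20, trimmed with fastp 0.20.0 and quantified with kallisto 0.46.1 on GRCm38.p6 transcripts. The deposited files give, per transcript, estimated counts, in which reads shared between transcripts or related genes are divided by kallisto, and TPM, which the authors' kallisto run scaled for effective length and to the same total in every library. No interval from kallisto was used here.

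Transcripts were summed to genes with the GENCODE annotation in hand (121104 of 121843 matched, and the 739 others held 0.236% to 0.327% of counts). The methods name another GENCODE release number than this annotation carries. Summed estimated counts were rounded, filtered with edgeR's filterByExpr (minimum count 10, minimum total 15) and fitted with glmQLFit in edgeR 4.0.16 (R 4.3.3) over all 15 libraries and 5 groups, with TMM scaling and 10 residual degrees of freedom. Intervals are 95% intervals from the fitted standard error. The fit was run on simulated data with the same spread in all groups and no differences between lines. Such data differ from these libraries, so this says nothing on the calls made here. The members and gene lists were chosen with earlier results of these data known. Genes named from the other lists are among the 4 of smallest p in the comparison described (1 gene of these lists is counted but not reported here by name), and further names from those lists were picked with their values in view. Libraries with the same replicate number come from the same MEF line. Their deviations from the group means correlated at a mean r of 0.0737 (30 pairs, -0.00381 to 0.237), against -0.0368 across lines (60 pairs), and 15 of 15 libraries lay closest to their own line. The line as a block was therefore an alternative, as were DESeq2 1.42.0, RLE size factors, no filter, length-scaled TPM counts, only the 6 libraries compared, no fold limit, each library left out in turn, and TPM levels. Replicates differed by far more than counting noise (chi-square per degree of freedom 17.9 to 217).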

Additional observations from a re-analysis of the deposited data

How the results depend on the processing

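Of the log2 fold changes of the 7 genes recomputed under the alternatives, 704 kept their direction and their side of the threshold, 16 lost a call, 9 gained one, and 20 changed sign, all 20 of differences that had not been called. Counts of called genes stayed within 1.5 times, except that the number called lower in +MyoD against MEFs ran from 1 to 2 when single libraries were left out, 2 without line 1 of MEFs. Sign changes came from no filter (*Ccn2* in +MyoD against MEFs, -0.014), from length-scaled TPM counts (*Ltbp2* -0.15 and *Bhlhe40* 0.14 with SP against F/R/C, *Pmepa1* 0.11 with CP against F/R/C), from the MEF line as a replicate block (*Bhlhe40* with SP against F/R/C, 0.018), and from leaving out single libraries. The ranges in that last case were -0.65 to 0.43 for *Ccn2* in +MyoD against MEFs, -0.93 to 0.045 for *Tgfbi* with F/R/C against +MyoD, -0.22 to 0.17 for *Skil*, -0.11 to 0.18 for *Ltbp2* and -0.12 to 0.13 for *Bhlhe40* with SP against F/R/C, -0.10 to 0.032 for *Ski* and -0.19 to 0.19 for *Pmepa1* with CP against F/R/C, and -0.36 to 0.027 for *Skil* and -0.066 to 0.33 for *Tgfbi* with CP against SP. The cause was not tested. With TPM in place of CPM, 45 log2 ratios of mean levels moved by less than 1 SD and 11 by more, with no sign changed among called differences. The replicate block ended the call of *Tgfbi* with SP against +MyoD and changed no other call. A fit of the 9 libraries with F/R/C, added after seeing the data, changed no call of the 7 genes. With 3 lines per group, the 10 residual degrees of freedom limit what can be called, and p-values measure the spread between these lines only. The fit pools this spread over all 5 groups, although it was unequal. Taken alone, the groups had a biological coefficient of variation of 0.487 in +MyoD, 0.214 in MEFs and 0.295 to 0.354 with F/R/C.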

Other observations

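The deposited transcript estimates allow a look at isoforms. *Ccn2* came almost wholly from Ccn2-201, a transcript of 2398 bases and 5 exons, which held 97.1% to 98.0% of its TPM in the mean of each condition, and *Tgfbi* from Tgfbi-201 (87.0% to 90.0%), so neither large change went with another main transcript. *Pmepa1* was divided between Pmepa1-201 (43.0% ± 2.16 in MEFs and 54.9% ± 1.40 in +MyoD+F/R/C, SD, n = 3) and the shorter Pmepa1-203 (55.6% ± 2.87 and 45.1% ± 1.40). For *Skil* the split was not resolved between lines, as Skil-204 held 44.3% ± 39.9 with CP. For *Bhlhe40* the main transcript Bhlhe40-201 held 97.9% ± 0.36 with CP and 78.3% ± 5.67 with F/R/C alone, while a shorter transcript, of 476 bases, was listed at 0 in the CP libraries and held 17.4% ± 4.52 with F/R/C alone. The mean TPM of the gene was 25.8 ± 4.76 and 35.8 ± 6.41 in these groups. Elsewhere the share of the 476-base transcript varied widely between lines, at 12.7% ± 12.2 in MEFs, 8.91% ± 8.75 in +MyoD and 13.3% ± 12.2 with SP. These shares are kallisto's division of shared reads and were not tested.

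As a description over all 15 libraries and 14318 genes, the profiles of centred log2 CPM nearest to each member were *Epha2* and *Esm1* for *Ccn2* (root mean square distance 0.72 and 0.74), *Iqgap1* and *Lrrc8c* for *Skil* (both 0.22), *Fkbp10* and *Nectin1* for *Ski* (both 0.16), *Aff1* and *Pcdh19* for *Pmepa1* (0.30 and 0.33), *Cntnap1* and *Casp12* for *Tgfbi* (0.33 and 0.41), *B4galnt1* and *Man2b2* for *Ltbp2* (0.32 and 0.33), and *Kif21b* and *Cacng7* for *Bhlhe40* (0.29 and 0.33). None of these is another member. Among the members, *Ltbp2* and *Bhlhe40* lay closest (0.40), then *Skil* and *Pmepa1* (0.45), and *Ccn2* and *Tgfbi* lay farthest apart (3.03). The points share libraries and scaling, so no test was made.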
